A study of Homo sapiens with 40 samples.

Results

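Chromatin accessibility was examined at 7 immediate early genes, the early growth response genes EGR1, EGR2, EGR3 and EGR4 and the immediate early response genes IER2, IER3 and IER5. The peaks of all 40 libraries were merged where they overlapped by 1 bp, and a merged region was kept when at least 2 libraries had a peak in it. Of 71600 such regions, 62 had their midpoint inside one of the 7 genes or within 50 kb of either end: 7 at EGR1, 3 at EGR2, 7 at EGR3, 9 at EGR4, 11 at IER2, 13 at IER3 and 12 at IER5. Each region is named by its gene and the distance of its midpoint from the gene's start in the direction of transcription, so that IER3 -25.2 kb lies upstream of IER3.

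BT474 is a HER2-overexpressing breast cancer cell line sensitive to the antibody trastuzumab, and BT474R is a resistant clone of it that was grown out under trastuzumab, so each line stands for 1 cell population. All cells were serum starved and then received EGF, HRG (neuregulin1/heregulin) or water as control in fresh starvation medium for 1, 12 or 24 h, or were collected untreated at 0 h (baseline). Open chromatin was mapped by ATAC-seq, with 2 libraries in each of the 20 groups of line, arm and time. The 2 ligands of a line and time share their control libraries, so EGF and HRG values are set side by side and are not independent. The study's methods call the 2 libraries of a group duplicates and do not say whether they were made on separate days or passages. In the rank tests below, p-values measure only the spread between such duplicates, pooled over the groups fitted together. The presence tests count libraries of different times, and between the lines those of all groups, as separate samples. No p-value here measures a spread between cell populations.

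Immediate early genes are transcribed within minutes of growth factor stimulation without new protein synthesis. Receptors such as EGFR and the HER2-HER3 pair activate the ERK kinases, which phosphorylate ternary complex factors (ELK1 and its relatives) bound with SRF to CArG boxes, and kinases that act on CREB at cyclic AMP response elements. The EGR proteins are zinc finger transcription factors, some of them held in check by the corepressors NAB1 and NAB2. FOS and JUN proteins pair to form AP-1, which binds many distal enhancers.

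The sequences below carry the regions that the results turn on, with motif matches in capitals. The EGR1 promoter and the window at its accessibility summit are shown because they hold 2 and 3 CArG boxes. IER3 -25.2 kb and IER5 +24.0 kb are shown as the member regions that gained a peak or rank with both ligands and whose AP-1 heptamers lie nearest to the summit among the members. IER3 -4.5 kb, IER3 -7.8 kb and IER2 +17.3 kb are shown as regions with changed ranks whose windows hold no match to either motif. The top summit of IER3 -4.5 kb ranged from -5252 to -3855 bp of the IER3 start. Its window therefore misses the summit of some libraries, and the rest of the region was not searched. The promoter is RefSeq's stretch before the gene start on GRCh38, plus strand, and each window spans 201 bases around the median summit on the plus strand of GRCh38.
EGR1 promoter, chr5:138465229-138465478, CArG boxes and ACGTCA in capitals: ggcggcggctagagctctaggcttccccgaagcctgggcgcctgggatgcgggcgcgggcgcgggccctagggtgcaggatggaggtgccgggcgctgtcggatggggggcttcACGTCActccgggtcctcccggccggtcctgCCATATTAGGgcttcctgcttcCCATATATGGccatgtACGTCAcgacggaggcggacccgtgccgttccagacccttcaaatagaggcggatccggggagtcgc
EGR1 summit, chr5:138465011-138465211, CArG boxes in capitals: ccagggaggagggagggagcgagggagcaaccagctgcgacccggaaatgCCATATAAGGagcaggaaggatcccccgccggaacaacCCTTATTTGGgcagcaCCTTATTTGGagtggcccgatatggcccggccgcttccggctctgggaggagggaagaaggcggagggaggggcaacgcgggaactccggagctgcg
IER3 -25.2 kb, chr6:30769646-30769846, TGAGTCA in capitals: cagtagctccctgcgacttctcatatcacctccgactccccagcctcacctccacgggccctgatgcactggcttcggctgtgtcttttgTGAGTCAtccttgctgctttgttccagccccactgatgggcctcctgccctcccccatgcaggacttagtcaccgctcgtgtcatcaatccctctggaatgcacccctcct
IER5 +24.0 kb, chr1:181112537-181112737, TGACTCA in capitals: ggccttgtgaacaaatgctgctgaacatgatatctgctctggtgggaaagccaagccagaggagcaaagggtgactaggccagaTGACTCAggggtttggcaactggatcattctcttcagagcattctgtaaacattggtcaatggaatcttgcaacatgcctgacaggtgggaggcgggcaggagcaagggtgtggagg
IER3 -4.5 kb, chr6:30748964-30749164: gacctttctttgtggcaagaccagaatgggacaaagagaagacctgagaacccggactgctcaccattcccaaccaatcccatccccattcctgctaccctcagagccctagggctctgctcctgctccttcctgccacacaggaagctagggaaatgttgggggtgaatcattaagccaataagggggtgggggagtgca
IER3 -7.8 kb, chr6:30752334-30752534: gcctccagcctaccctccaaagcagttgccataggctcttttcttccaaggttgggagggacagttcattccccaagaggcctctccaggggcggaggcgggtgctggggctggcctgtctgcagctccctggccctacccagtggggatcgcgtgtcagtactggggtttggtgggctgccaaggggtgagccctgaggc
IER2 +17.3 kb, chr19:13167564-13167764: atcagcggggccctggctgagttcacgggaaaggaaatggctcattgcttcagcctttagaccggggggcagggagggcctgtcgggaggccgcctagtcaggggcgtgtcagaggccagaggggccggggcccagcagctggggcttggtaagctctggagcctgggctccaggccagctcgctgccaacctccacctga

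In the EGR1 promoter the CArG boxes begin 105 and 83 bases before the start, and the CREB core ACGTCA begins 136 and 67 bases before it. A CArG box was found in 1.16% of 35116 RefSeq promoter windows and ACGTCA, read on both strands, in 7.1%. EGR2 also held both, with a CArG box 71 and ACGTCA 55 bases before the start. EGR4 held ACGTCA 178 and 110 bases before its start, and the promoter windows of IER2 and IER5 held neither. Promoters of 5 of the 7 genes were in the RefSeq table, all but EGR3 and IER3. Among the 201-base windows of all 71600 regions, 13% held TGACTCA or TGAGTCA, 0.909% a CArG box and 3.82% ACGTCA. A CArG box was in 3 member windows (4.84%), at EGR1 +2.1 kb, EGR2 +1.8 kb and IER2 +1.9 kb. Those at EGR2 +1.8 kb and IER2 +1.9 kb also held ACGTCA, which was in 7 member windows (11.3%). The full element TGACGTCA was in 2 member windows (3.23%, against 0.67% of all regions), at IER3 -37.6 kb and IER5 +38.6 kb. Among the 62 member windows, 6 (9.68%) held the AP-1 heptamer, with its centre 7 bases from the summit in IER3 -25.2 kb and 13 bases in IER5 +24.0 kb, against 24 to 44 bases in the other 4.

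Peak lists held 47571 to 56846 peaks in BT474 and 32479 to 56494 in BT474R, where the shortest was control 12 h replicate 1. No read counts were used, so depth is unknown and an absent peak means only that none was listed. Of 10 luminal breast marker genes, 9 had a promoter peak in all 40 libraries and ESR1 in 39, while 7 marker genes of other cell types had none in any library, COL1A1 had one in all 40 and KRT5 in 21. Member regions with a peak numbered 42 to 50 per library in BT474 and 35 to 53 in BT474R. In BT474 they averaged 44.3 ± 1.51 in control, 48.2 ± 1.47 in EGF and 47.3 ± 1.21 in HRG libraries (SD, n = 6 each), beside 65.2% to 69.6%, 65.2% to 74.8% and 63.1% to 71.3% of all regions with a peak. In BT474R the means were 46.3 ± 6.65, 47.2 ± 5.0 and 49.2 ± 3.06, beside 42.2% to 73.6%, 49.1% to 69.0% and 56.0% to 74.7% of all regions, and none of these differences was tested.

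Each peak carries a score, the area of its significance curve, which rises with height and width. The list percentile is the rank of that score among all peaks of its library, from 0 to 100. For tests, the shared-region percentile ranks each score only among the regions with a peak in all 20 libraries of the line, 36820 in BT474 and 28260 in BT474R, so that every library of a line is ranked over the same regions. Of the 62 member regions, 42 could be ranked in BT474 and 33 in BT474R, and 30 had a peak in all 40 libraries (48.4%, against 35.1% of all regions).

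For 6 of the 7 genes, the regions within 1 kb of a start had a peak in every library of both lines, starved or stimulated. For EGR3 alone they did not. In IER3 +2.3 kb the top summit lay 1725 to 1764 bp past the IER3 start, so its peak need not reach that start in every library. EGR1, the founding member of the family, lay in a region of 7845 bp (EGR1 +2.1 kb) whose list percentile was at least 99.1 in all 40 libraries, with a median of 99.7. The median percentile was 97.6 at the IER2 gene body (IER2 +1.9 kb), 96.8 at IER3 +2.3 kb, 87.3 at EGR2 +1.8 kb, 83.9 at IER5 +0.7 kb, 81.1 at IER2 -0.2 kb and 70.6 at EGR4 +0.1 kb. Both IER2 regions lie within 1 kb of a start of STX10 as well. IER3 +2.3 kb lies within 1 kb of starts of FLOT1, HCG20 and IER3-AS1. The share of each gene in those values therefore cannot be told apart. EGR3 had a lower peak at its start (EGR3 -1.3 kb, median 52.2) and a second at EGR3 +1.7 kb with a median of 17.3 where present.

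**Figure D1:**
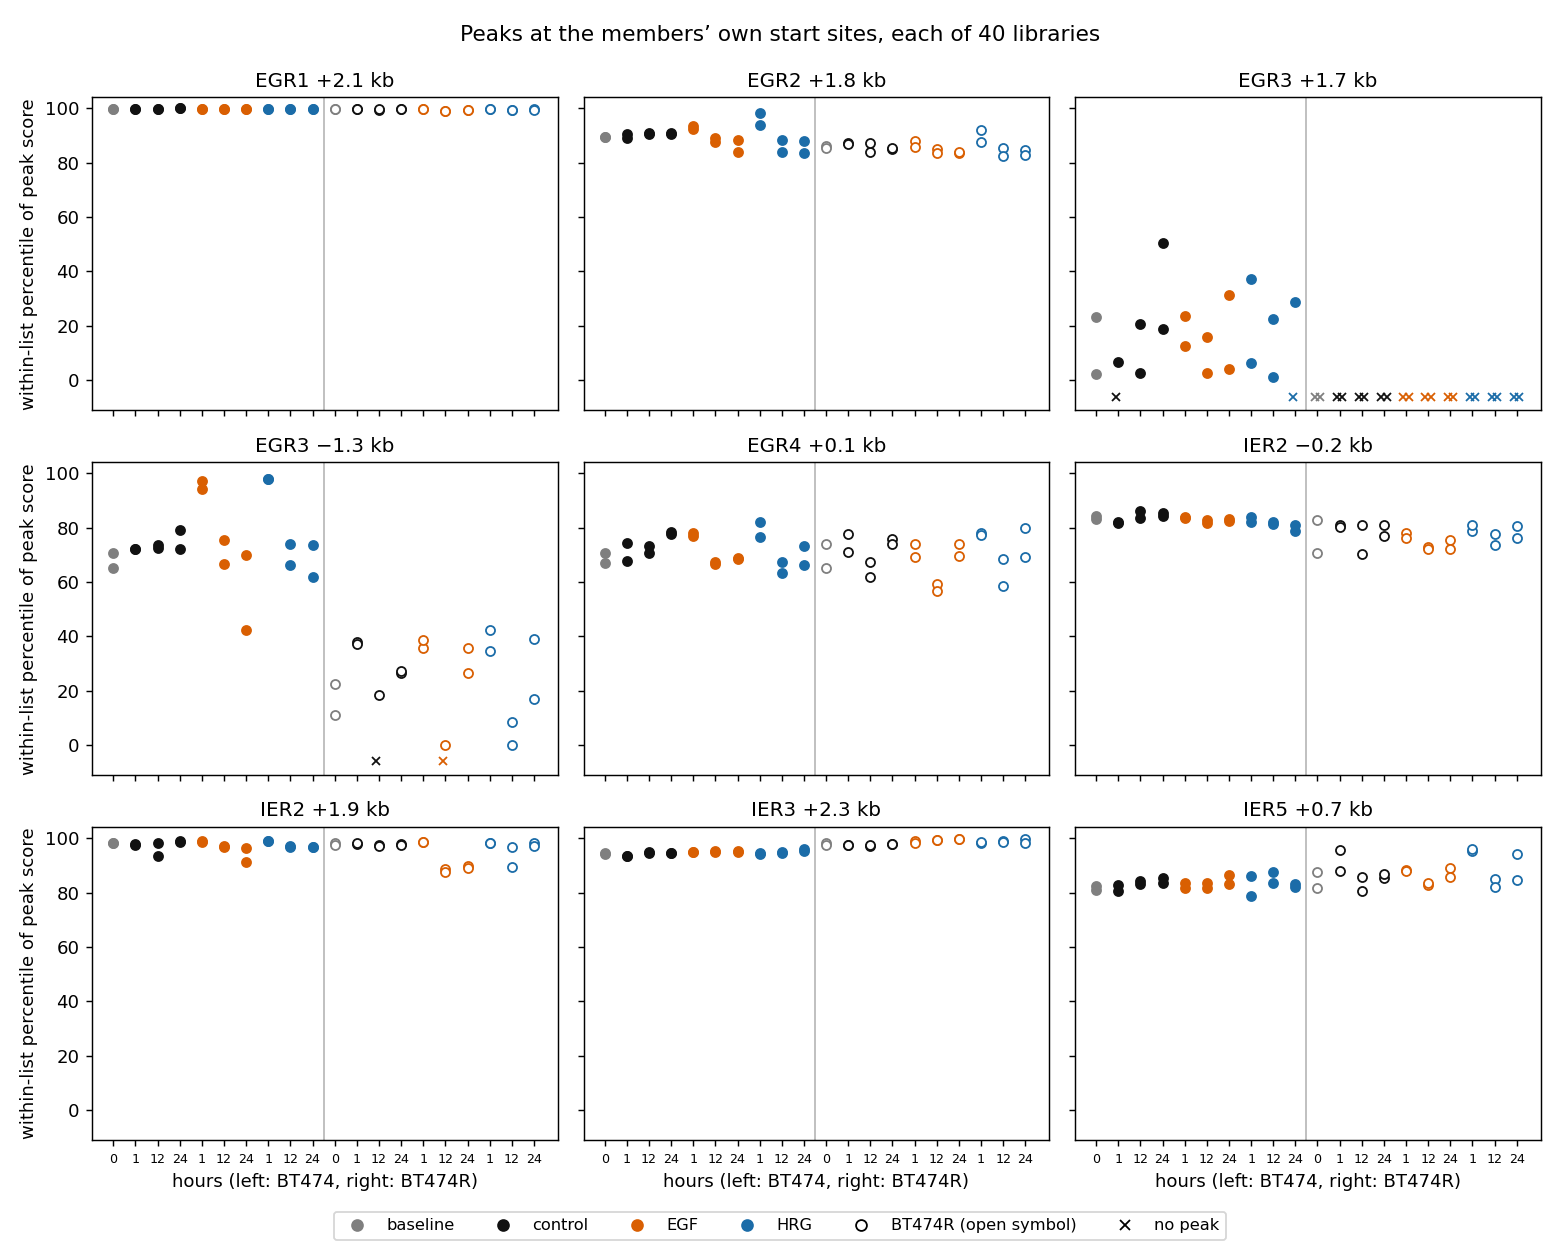
Within-list percentile of the peak score (0 to 100) at the 9 regions within 1 kb of a member's own start, in each of 40 libraries by time in hours. Filled symbols are BT474, open symbols BT474R, colours give the arm and crosses mark libraries with no peak. EGR1 +2.1 kb stays at or above 99.1, while EGR3 -1.3 kb reaches 94.3 to 97.8 in the 4 ligand libraries of BT474 at 1 h and stays at or below 42.5 in BT474R.

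Presence of a peak was compared between the 6 ligand and 6 control libraries of a line by a two-sided Fisher's exact test, which could reach 0.05 for only 2 or 3 member regions in each comparison. EGF-BT474 and HRG-BT474 each had 1 called member region, IER3 -25.2 kb in both, while 19% of 4492 and 24.7% of 4754 testable regions of the whole series were called. A call here is an unadjusted p under 0.05, and EGF-BT474R and HRG-BT474R had 0 called members in Fisher's exact test, against 4.08% of 6819 and 2.31% of 6415 testable regions. With 2 or 3 testable members, these counts say little about the 7 genes.

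Rank was compared by limma, ligand against control at each time, with Benjamini-Hochberg adjustment over all ranked regions of the line and a call at an adjusted p under 0.05. In EGF-BT474, 4 of 42 members were called at 1 h (9.52%, against 4.24% of all regions), 8 at 12 h (19%, against 5.56%) and 11 at 24 h (26.2%, against 13.3%). HRG-BT474 had 7 at 1 h (16.7%, against 10.7%), 8 at 12 h (19%, against 9.5%) and 10 at 24 h (23.8%, against 13.4%). The called members moved both ways, with 7 higher and 4 lower in EGF-BT474 at 24 h and 6 higher and 4 lower in HRG-BT474 at 24 h.

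In BT474R the responses came at the later times. EGF-BT474R had 0 of 33 members called at 1 h in limma, where 4 had an unadjusted p under 0.05 and 1.26% of all regions were called. At 12 h 7 were called (21.2%, against 9.3%) and at 24 h 10 (30.3%, against 10.8%), 5 of them higher and 5 lower. HRG-BT474R had 4 at 12 h (12.1%, against 3.23%) but 0 at 1 h and 24 h, where 2 and 3 members had an unadjusted p under 0.05 and limma called 0.00708% and 0.0955% of all regions.

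Control libraries of each line were also compared with its baseline. Those of BT474 against baseline gave 0 calls of members at 1, 12 and 24 h in limma, with 4, 10 and 7 members at an unadjusted p under 0.05 and 0.0978%, 0.206% and 0.589% of all regions called. Control BT474R gave 1 call at 1 h (IER5 +24.0 kb), 0 at 12 h with 7 at an unadjusted p under 0.05, and 1 at 24 h (IER3 -7.8 kb), against 1.73%, 1.32% and 3.77% of all regions. The control BT474R total was 9 without baseline replicate 1, 0 without either control 24 h library, 6 with within-list percentiles and 8 with an absent peak set to 0. With each region counted once over the 3 times, EGF-BT474 had 14 of 42 members called (33.3%, against 17.7% of all regions) and HRG-BT474 13 (31%, against 23.7%). EGF-BT474R had 10 of 33 (30.3%, against 14.7%) and HRG-BT474R 4 (12.1%, against 3.24%). Control against baseline had 0 in BT474 (0.769% of all regions) and 2 in BT474R (6.06%, against 5.9%). Over all contrasts and member regions there were 71 calls. Each was refitted 4 times without one of the libraries it compares, the lone library left being assumed to vary like the other groups, and 18 calls passed in all 4 fits. In the other 53 the highest adjusted p over the 4 fits ran from 0.0508 to 0.28. The number of fits passed is given below with most calls.

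**Figure D2:**
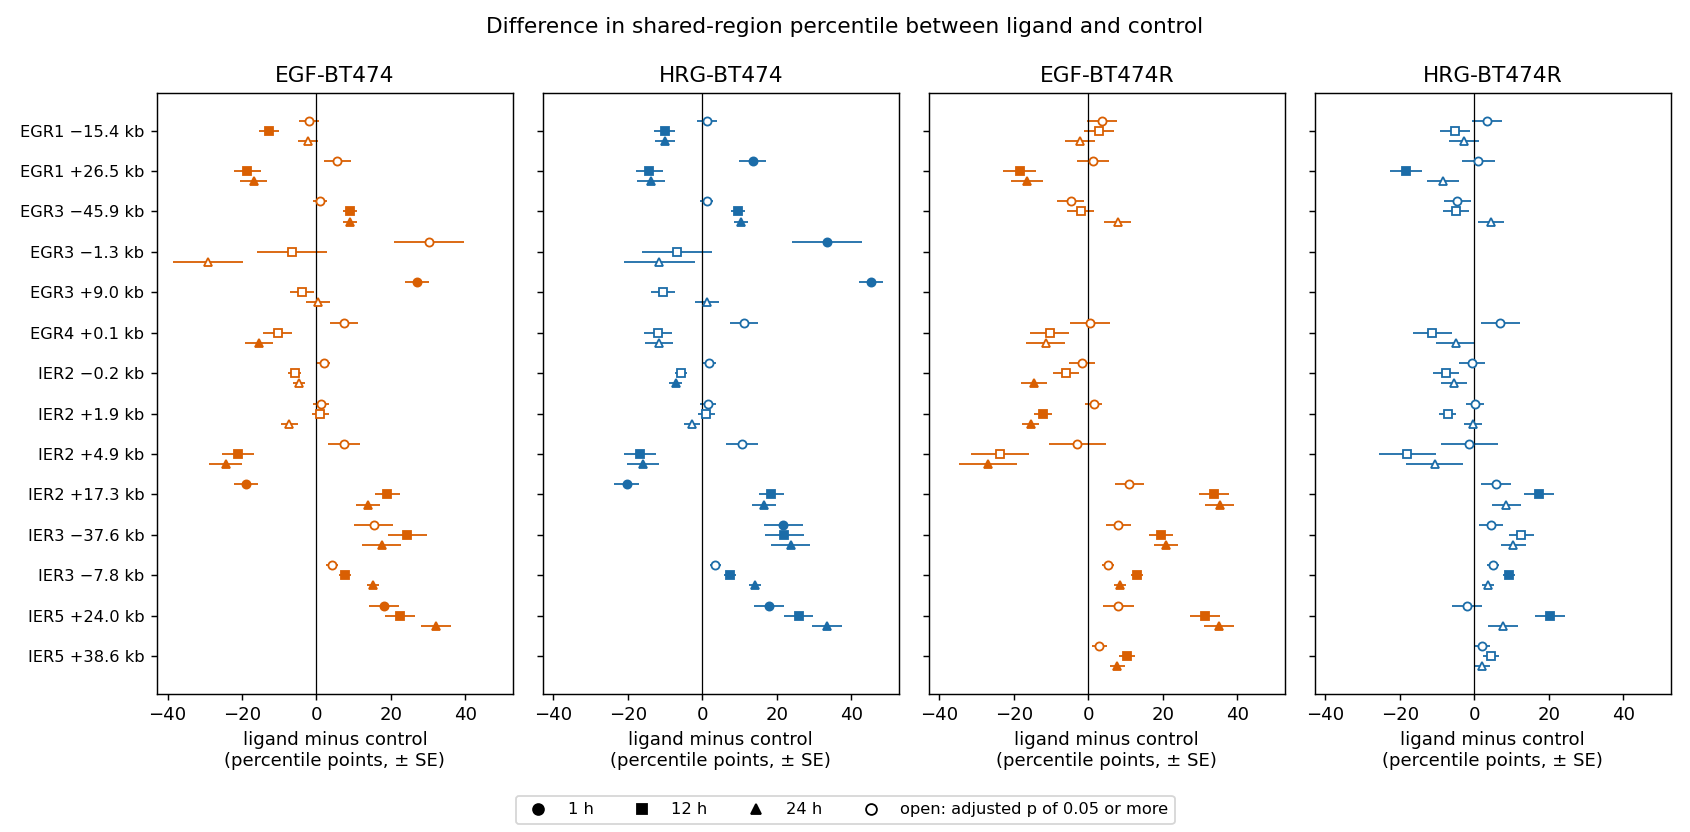
Difference in shared-region percentile between ligand and control (points, with SE from limma) for 14 member regions in the 4 combinations of ligand and line; circles, squares and triangles are 1, 12 and 24 h, and filled symbols have an adjusted p under 0.05. EGR3 +9.0 kb has the highest value in HRG-BT474 at 1 h (45.19), IER5 +24.0 kb is positive and filled at all 3 times in both ligands of BT474, and EGR3 -1.3 kb and EGR3 +9.0 kb were not ranked in BT474R.

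EGR3, a family member known to be induced by neuregulins, held the 4 largest differences at 1 h among all ranked member regions, all in BT474. The gene lies on the minus strand of chr8:22687659-22693480. At its start (EGR3 -1.3 kb, 2775 bp) the shared-region percentile in BT474 was 63.7 and 63.7 in control 1 h, 92 and 96.1 in EGF 1 h, and 97.1 and 97.2 in HRG 1 h. At 12 h it was back at 65.7 and 49.9 with EGF and 62.8 and 52.7 with HRG, beside 65.2 and 63.7 in control. The top peak measured 1281 and 1270 bp in control 1 h and 1946 and 2753 bp in EGF 1 h. In HRG 1 h it measured 2772 and 2773 bp, and in all 4 ligand libraries at 12 h 1225 to 1277 bp. Libraries with a peak here held 1 to 4 of them, with the top summit from -2351 to -20 bp of the start. Whether neighbouring peaks were joined into a wider one was not tested. In limma the 1 h difference was 33.40 ± 9.42 (SE) for HRG (adjusted p = 0.0436) and 30.32 ± 9.42 for EGF (adjusted p = 0.106). The HRG call was lost without any 1 of its 4 libraries (adjusted p = 0.15 to 0.165), while the difference stayed between 33.37 and 33.42.

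A second EGR3 region, EGR3 +9.0 kb, lies past the gene's 3' end at the start of the noncoding gene ENSG00000261026. Its shared-region percentile in BT474 was 9.7 and 5.2 in control 1 h, 31.5 and 37.5 in EGF 1 h, and 53.1 and 52.2 in HRG 1 h. By 12 h it read 7.1 and 10.1 with EGF, 3.1 and 0.9 with HRG, and 12.3 and 12.6 in control. The difference at 1 h was 27.04 ± 3.18 for EGF (adjusted p = 0.00209) and 45.19 ± 3.18 for HRG (adjusted p = 3.55e-05) in limma, and both calls passed 4 of 4 fits without a library.

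Other EGR3 regions moved less or later. EGR3 -45.9 kb, in an intron of PEBP4, was 67.8 and 71.1 in control 24 h, 78.5 and 78.5 in EGF 24 h, and 80.6 and 79.2 in HRG 24 h of BT474. Baseline read 77.7 and 77.2 and control 1 h 77.5 and 72.3, so the ligand libraries at 24 h stood near baseline and the control libraries of 24 h below it. Its limma differences at 24 h were 9.05 ± 1.83 for EGF (adjusted p = 0.00839, 3 of 4 fits, lost without control replicate 1 at 0.0707) and 10.43 ± 1.83 for HRG (adjusted p = 0.00342, 4 of 4). It was also called at 12 h with both ligands, 8.92 for EGF (adjusted p = 0.0188, 1 of 4 fits) and 9.58 for HRG (adjusted p = 0.0079, 2 of 4). EGR3 +24.6 kb, at the BIN3 start, fell by 38.53 ± 10.13 in EGF-BT474 at 24 h (adjusted p = 0.0289, 0 of 4 fits), and EGR3 +20.3 kb rose by 8.65 ± 2.34 in HRG-BT474 at 1 h (adjusted p = 0.0365, 1 of 4).

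In BT474R, 4 of the 7 EGR3 regions had a peak in 18 to 20 of the 20 libraries, EGR3 +9.0 kb in 9, and EGR3 +1.7 kb and EGR3 +7.7 kb in 0. EGR3 -1.3 kb had list percentiles from 0.2 to 42.5 in the 18 BT474R libraries with a peak, and from 42.2 to 97.8 in the 20 of BT474. At 1 h it read 38.0 and 37.2 in control, 35.7 and 38.7 in EGF and 42.5 and 34.8 in HRG libraries of BT474R, with top peaks of 280 to 315 bp. Whether these lay at the same summit as in BT474 was not tested. With an absent peak set to 0, limma gave a 1 h difference of -0.42 for EGF (adjusted p = 0.997) and 1.00 for HRG (adjusted p = 1), over 44661 regions of BT474R with a peak in at least 10 of its 20 libraries. Leaving out 1 of the 4 libraries moved these from -1.94 to 1.11 and from -2.86 to 4.86, and no ligand contrast of EGR3 -1.3 kb was called in BT474R at any time. The effects of the lines at EGR3 -1.3 kb were not tested against each other. EGR3 +1.7 kb had a peak in 18 of 20 BT474 and 0 of 20 BT474R libraries.

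EGR1 kept its start at the top of every list and changed at distal sites. The shared-region percentile of EGR1 +2.1 kb differed from control by -0.82 to 0.18 over the 12 ligand contrasts, none called, at ranks close to the top of the scale. EGR1 +26.5 kb, between EGR1 and ETF1, read 47.6 and 51.2 in control, 53.6 and 56.4 in EGF and 65.1 and 60.6 in HRG libraries of BT474 at 1 h. At 24 h the order was turned, with 60.9 and 61.4 in control, 43.2 and 45.3 in EGF, and 52.1 and 42.6 in HRG. It was also lower at 12 h in BT474R, 24.5 and 30.7 in control against 7.9 and 10.4 with EGF and 9.8 and 8.9 with HRG. Baseline of BT474R read 23.1 and 16.3, and control 8.9 and 14.8 at 1 h and 35 and 35.3 at 24 h. EGF libraries of BT474R at 24 h, at 23.4 and 14, thus stood near baseline and the control libraries of 24 h above it.

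The limma differences at EGR1 +26.5 kb were 13.49 ± 3.68 for HRG-BT474 at 1 h (adjusted p = 0.0383), -18.55 and -16.90 for EGF-BT474 at 12 and 24 h, and -14.28 and -13.82 for HRG-BT474 (adjusted p = 0.0123 to 0.0331). In BT474R they were -18.47 and -16.43 for EGF at 12 and 24 h and -18.25 for HRG at 12 h (adjusted p = 0.0206 to 0.0445). None of these 8 calls passed all 4 fits without a library, 5 passed 1, and their adjusted p rose to between 0.077 and 0.259 at the highest. At EGR1 -15.4 kb the limma difference was -12.66 ± 2.71 in EGF-BT474 at 12 h (adjusted p = 0.0231, 1 of 4 fits), and in HRG-BT474 -10.17 at 12 h and -10.03 at 24 h (adjusted p = 0.0382 and 0.032, 0 of 4). EGR1 +23.2 kb, which holds an AP-1 heptamer, had a peak in all 20 BT474 libraries and, in BT474R, in 2 of 6 control, 5 of 6 EGF and 6 of 6 HRG libraries, a difference Fisher's exact test did not call.

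At the starts of EGR2 and EGR4 no difference was called in BT474 at 1 h. EGR2, known for its part in hindbrain patterning and myelination, had list percentiles of 90.7 and 88.9 in control, 93.5 and 92.4 in EGF, and 93.7 and 98.3 in HRG libraries of BT474 at 1 h (EGR2 +1.8 kb). Its limma difference was 8.30 ± 2.79 for HRG (adjusted p = 0.0843) and 3.93 ± 2.79 for EGF (adjusted p = 0.557), neither called. At 24 h the differences were -7.72 ± 2.79 for EGF and -7.35 ± 2.79 for HRG (adjusted p = 0.0909 and 0.106). EGR4 +0.1 kb read 74.2 and 67.7 in control, 77.0 and 78.0 in EGF and 76.6 and 82.2 in HRG libraries at 1 h, and 78.3 and 77.5 in control against 68.9 and 68.6 in EGF at 24 h. Only the last was called, at -15.54 ± 3.78 in limma (adjusted p = 0.0205), and it passed 0 of 4 fits without a library. EGR4 -40.0 kb fell by 10.66 ± 3.08 in EGF-BT474R at 24 h (adjusted p = 0.0477, 0 of 4 fits).

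IER2, a short nuclear protein of the early response, had its clearest change 17.3 kb past its start. IER2 +17.3 kb is an intergenic region of 691 bp in chr19:13167353-13168043. In BT474 it dropped at 1 h, from 37.4 and 35.2 in control to 22.5 and 12.2 with EGF and 16.4 and 15.5 with HRG. At 12 h it stood above control, 42.6 and 41.9 with EGF and 42 and 41.4 with HRG against 25.9 and 20.5. In BT474R at 1 h it read 32.8 and 38.3 in control, 43.7 and 49.4 with EGF and 45.6 and 37.2 with HRG, none called, and it then reached 65.1 and 59.8 with EGF at 12 h and 63.1 and 67.8 at 24 h, over 26.2 and 31.3 and 26.7 and 33.6 in control.

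Those drops were -18.99 ± 3.28 for EGF (adjusted p = 0.0112, 1 of 4 fits) and -20.35 ± 3.28 for HRG (adjusted p = 0.00309, 4 of 4) in limma. The later rises in BT474 were 19.07 and 13.82 for EGF at 12 and 24 h (adjusted p = 0.00801 and 0.0183, 2 and 0 of 4 fits), and 18.52 and 16.52 for HRG (adjusted p = 0.00527 and 0.00706, 3 of 4 each, lost without control 12 h replicate 2 at 0.0518 and without control 24 h replicate 1 at 0.0508). In EGF-BT474R the differences were 33.73 ± 3.96 at 12 h (adjusted p = 0.000426) and 35.27 ± 3.96 at 24 h (adjusted p = 0.000284), both 4 of 4. HRG-BT474R rose by 17.38 at 12 h (adjusted p = 0.0382, 0 of 4 fits).

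Closer to the gene, IER2 lost rank at the late times. IER2 +4.9 kb read 93.5 and 93.8 in control 24 h of BT474, 68.6 and 69.9 with EGF and 82.4 and 72.9 with HRG, with limma differences of -24.38 ± 4.36 (adjusted p = 0.0045, 4 of 4 fits) and -15.98 ± 4.36 (adjusted p = 0.0332, 1 of 4). At 12 h they were -21.06 for EGF and -16.78 for HRG (adjusted p = 0.0198 and 0.034, 1 and 0 of 4), and in EGF-BT474R at 24 h -26.95 (adjusted p = 0.0449, 0 of 4). The gene body, IER2 +1.9 kb, had list percentiles of 97.7 and 97.5 in control 24 h and 89.8 and 88.9 in EGF 24 h of BT474R. Its limma difference there was -15.49 ± 2.37 (adjusted p = 0.00181, 4 of 4), and -12.18 ± 2.37 at 12 h (adjusted p = 0.00809, 2 of 4, lost without control replicate 1 at 0.0597 and EGF replicate 2 at 0.0555). IER2 -0.2 kb fell by 14.54 in EGF-BT474R and 7.19 in HRG-BT474 at 24 h (adjusted p = 0.0213 and 0.0173, 0 and 2 of 4), and IER2 +19.6 kb rose by 11.60 and 9.16 in EGF-BT474 and HRG-BT474 at 24 h (adjusted p = 0.0151 and 0.0418, 2 and 1 of 4).

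**Figure D3:**
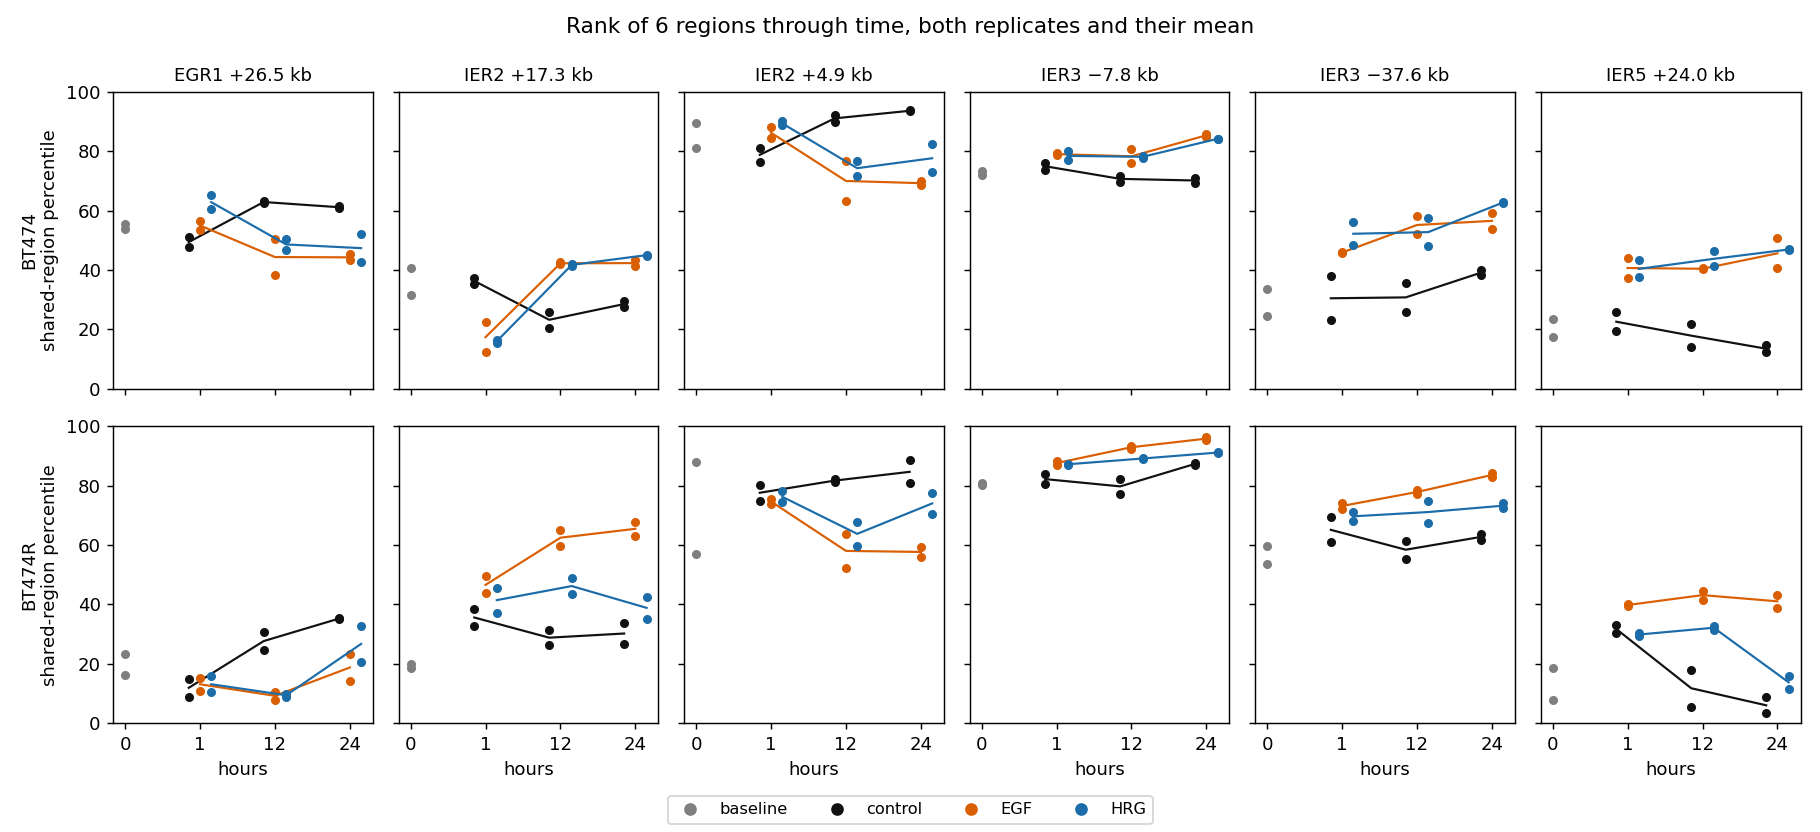
Shared-region percentile (0 to 100) of 6 member regions in BT474 (top) and BT474R (bottom) against time in hours (evenly spaced, not to scale), with both replicates as points and lines through their means; grey is baseline, black control, orange EGF and blue HRG. IER2 +17.3 kb drops below control at 1 h and stands above it from 12 h in BT474, and in BT474R reaches 65.1 and 59.8 with EGF at 12 h.

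IER3, a regulator of cell death and ERK signaling, had the most member regions and the only called gain of a peak. IER3 -25.2 kb spans 390 bp in an intron of the noncoding gene HCG20, chr6:30769512-30769901. In BT474 it had a peak in 0 of 2 baseline, 0 of 6 control, 6 of 6 EGF and 6 of 6 HRG libraries, already at 1 h. Fisher's exact test gave p = 0.00216 for each ligand, with a Benjamini-Hochberg adjusted p of 0.0335 for EGF and 0.0241 for HRG. The peaks were low to middling, with list percentiles of 3.6 and 24.7 in EGF 1 h, 6.6 and 16.8 in EGF 12 h and 28.1 and 31.4 in EGF 24 h, and from 18.6 to 36.4 over the 6 HRG libraries. In BT474R all 12 ligand libraries had the peak too, at 20.4 to 59.9, with the highest values 59.2 and 59.9 in EGF 24 h, but so had both control 1 h libraries at 23.5 and 9.9, and the difference was not called. Both BT474 calls were lost when peaks scoring under 400, or all but the top 32479 of each list, were dropped.

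**Figure D4:**
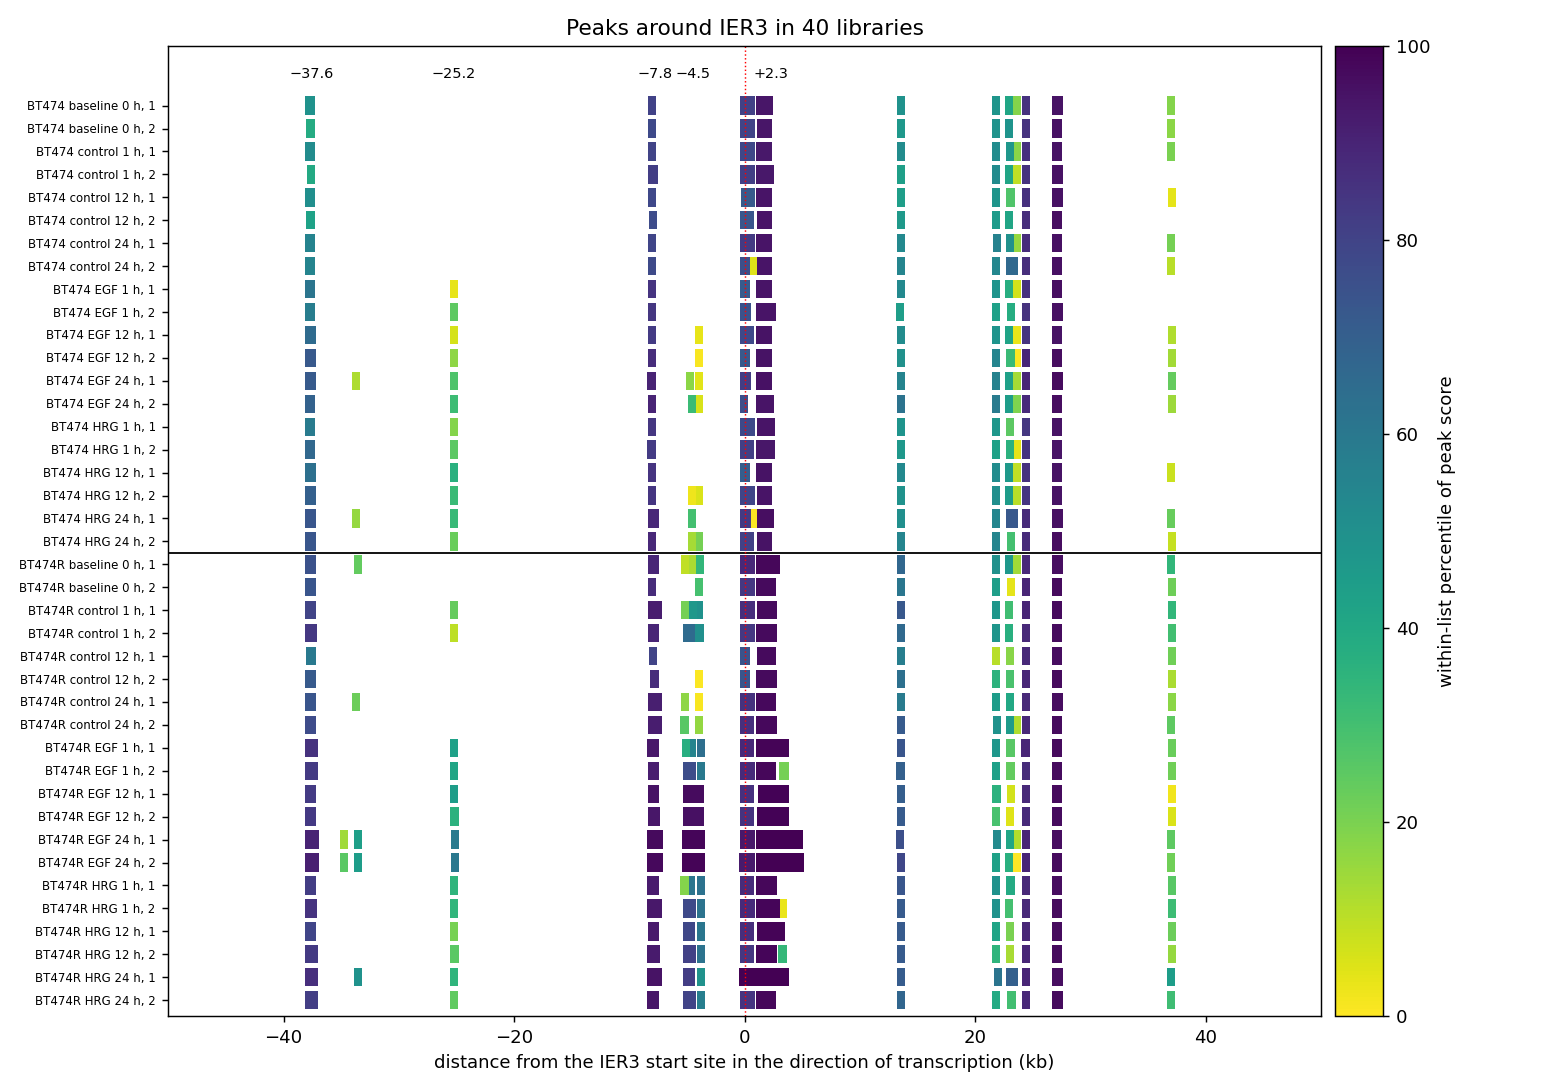
Peaks within 50 kb of the IER3 start in each of 40 libraries (rows, BT474 above the line and BT474R below), placed by distance in kb in the direction of transcription and coloured by within-list percentile of the score; peaks under 0.7 kb are drawn at that width. The column at -25.2 kb is empty in all baseline and control libraries of BT474 and filled in all 12 ligand libraries, and the column at -4.5 kb is darkest in EGF libraries of BT474R at 12 and 24 h.

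IER3 -4.5 kb, in an intron of HCG20, ranged more widely between the arms of BT474R than between its replicates. BT474R had list percentiles of 34.1 and 29.3 at baseline and 49.4 and 65.6 in control 1 h, and in control 12 h no peak and 0.6. EGF libraries of BT474R read 63.8 and 76.6 at 1 h, 97.0 and 95.8 at 12 h and 98.8 and 99.0 at 24 h, where control read 16.8 and 25.8, and HRG libraries read 78.9 and 80.7 at 12 h and 82.1 and 79.8 at 24 h. The top peak measured 1854 and 1842 bp in EGF 12 h and 2023 and 1988 bp in EGF 24 h against 248 and 246 bp in control 24 h. Libraries with a peak here held 1 to 3 of them, and whether neighbouring peaks were joined was not tested. In BT474 a peak was absent at baseline, in control and at 1 h, and listed in 4 of 6 EGF and 3 of 6 HRG libraries at 0.8 to 31.9.

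One BT474R library, control 12 h replicate 1, had no peak at IER3 -4.5 kb, so the region was not ranked above. With an absent peak set to 0 and all 44661 regions with a peak in at least 10 of the line's 20 libraries, limma gave 96.10 for EGF-BT474R at 12 h (adjusted p = 2.18e-05, with 7.19% of regions called) and 77.60 at 24 h (adjusted p = 1.79e-05, 14.2% called). For HRG-BT474R it gave 79.47 at 12 h (adjusted p = 9.7e-05, 11% called) and 59.70 at 24 h (adjusted p = 0.000942, 1.42% called). At 1 h neither ligand was called, with 12.70 for EGF (adjusted p = 0.365, 0.607% called) and 12.71 for HRG (adjusted p = 1, 0.0627% called). These 4 calls at 12 and 24 h passed 4 of 4 fits without a library (adjusted p up to 0.021). On the same scale control 12 h against baseline was -31.40 (adjusted p = 0.00743, 2 of 4 fits), and the 2 control 12 h lists held 32479 and 40331 peaks, against 38205 and 37476 in EGF 12 h. The part of list length in these values was not tested. At 24 h the control lists held 41833 and 45799 peaks and the EGF lists 52126 and 51080.

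IER3 -7.8 kb and IER3 -37.6 kb rose in both lines. IER3 -7.8 kb was 70.9 and 69.4 in control 24 h of BT474, 85.9 and 84.9 with EGF and 84.1 and 84.3 with HRG, a limma difference of 15.27 ± 1.60 (adjusted p = 0.00025) and 14.07 ± 1.60 (adjusted p = 0.000293), both 4 of 4 fits. BT474R read 77.3 and 82.2 in control 12 h against 93.5 and 92.4 with EGF, a difference of 13.15 ± 1.60 (adjusted p = 0.000512, 4 of 4). At 24 h BT474R control was itself at 87.6 and 87.1, called above baseline by 6.91 ± 1.60 (adjusted p = 0.0385, 1 of 4 fits), and EGF at 95.3 and 96.4 stood 8.47 ± 1.60 above it (adjusted p = 0.00591, 3 of 4, lost without EGF replicate 2 at 0.0593). Its other calls were 7.62 and 7.50 for EGF-BT474 and HRG-BT474 at 12 h and 9.36 for HRG-BT474R at 12 h (adjusted p = 0.0112 to 0.021, 1 of 4 each).

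IER3 -37.6 kb, at a start of HCG20, was 61.7 and 63.7 in control 24 h and 82.8 and 84.4 in EGF 24 h of BT474R. Its limma differences were 19.46 ± 3.26 at 12 h (adjusted p = 0.00354) and 20.92 ± 3.26 at 24 h (adjusted p = 0.00201) in EGF-BT474R, both 4 of 4 fits. In BT474 it rose with HRG at 1, 12 and 24 h by 21.71, 22.02 and 23.69 (adjusted p = 0.0124 to 0.0234, 1, 2 and 1 of 4) and with EGF at 12 and 24 h by 24.39 and 17.49 (adjusted p = 0.0232 and 0.0485, 2 and 0 of 4). The region over the gene's own start, IER3 +2.3 kb, was not called in any ligand contrast (differences of -0.37 to 2.44). Its top peak, with the summit 1725 to 1764 bp past that start, measured 4029 and 4170 bp in EGF 24 h of BT474R. In BT474R it measured 1762 and 1800 bp in control 24 h and 4340 and 1752 bp in HRG 24 h. IER3 +22.0 kb, within TUBB, fell by 9.41 in EGF-BT474 at 1 h (adjusted p = 0.0432, 0 of 4 fits).

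IER5, which modulates the heat shock factor HSF1 through the phosphatase PP2A, changed rank 24.0 kb past its start. IER5 +24.0 kb is an intergenic region of 446 bp in chr1:181112438-181112883. In BT474 it read 12.2 and 14.7 in control 24 h, 40.5 and 50.7 with EGF and 47.1 and 46.7 with HRG. Over 1, 12 and 24 h the ligand libraries of BT474 read 37.3 to 50.7, and its control and baseline libraries 12.2 to 25.7. In BT474R EGF libraries read 38.9 to 44.6 throughout, while control went from 33.1 and 30.2 at 1 h to 5.5 and 17.9 at 12 h and 3.2 and 8.7 at 24 h. HRG-BT474R read 32.7 and 31.5 at 12 h and only 11.5 and 15.9 at 24 h.

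The limma differences at IER5 +24.0 kb in BT474 were 18.10, 22.50 and 32.11 for EGF at 1, 12 and 24 h (adjusted p = 0.0301, 0.0093 and 0.000589, passing 0, 2 and 4 of 4 fits). For HRG they were 17.81, 25.85 and 33.39 (adjusted p = 0.0156, 0.00255 and 0.000393, passing 2, 4 and 4). EGF-BT474R gave 31.37 ± 4.05 at 12 h and 35.02 ± 4.05 at 24 h (adjusted p = 0.000766 and 0.000335, 4 of 4 each), and HRG-BT474R 20.35 ± 4.05 at 12 h (adjusted p = 0.0219, 1 of 4) and 7.71 at 24 h (adjusted p = 0.629). Control 1 h of BT474R, after a change of medium with water, was itself 18.58 ± 4.05 above baseline (adjusted p = 0.045, 1 of 4), and at that time EGF-BT474R differed from it by 8.09 and HRG-BT474R by -1.88, neither called.

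IER5 +38.6 kb had a peak in 1 of 2 BT474 baseline libraries (list percentile 0.6), in 0 of 6 control, 4 of 6 EGF and 4 of 6 HRG libraries, those with ligand all at 12 and 24 h, and in all 20 BT474R libraries. Fisher's exact test did not call the difference in BT474. Its limma difference in EGF-BT474R was 10.36 ± 2.08 at 12 h and 7.78 ± 2.08 at 24 h (adjusted p = 0.00934 and 0.0339, 2 and 0 of 4 fits). IER5 +29.2 kb rose by 6.46 ± 1.84 in EGF-BT474 at 24 h (adjusted p = 0.0399, 0 of 4). The promoter, IER5 +0.7 kb, had differences of -4.84 to 7.68 and was not called in any contrast of ligand and control, and it was not tested against IER5 +24.0 kb.

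Between the lines, over 20 libraries each, 12 of the 18 testable member regions differed in presence by Fisher's exact test at a Benjamini-Hochberg adjusted p under 0.05. BT474R had more libraries with a peak at 7 of them and fewer at 5, while 27.2% and 44.6% of all 32683 testable regions went each way. EGR4 held 3 of the 7: +39.5 kb (0 of 20 in BT474, 13 of 20 in BT474R, adjusted p = 4.05e-05), +31.2 kb (0 and 10, adjusted p = 0.000953) and +12.8 kb (1 and 18, adjusted p = 3.18e-07). The others were IER3 +37.0 kb (13 and 20), IER3 -4.5 kb (7 and 19), IER5 -45.5 kb (7 and 20) and IER5 +38.6 kb (9 and 20). Of those with fewer, EGR3 +1.7 kb went from 18 to 0 (adjusted p = 2.32e-08), EGR1 -26.4 kb, at the REEP2 start, from 20 to 3 (adjusted p = 1.46e-07), EGR4 +9.2 kb from 20 to 6, EGR3 +9.0 kb from 20 to 9 and EGR1 +23.2 kb from 20 to 14. Only EGR3 +1.7 kb among the 12 lies within 1 kb of a member's own start. BT474 lists were longer, with a median of 51357 peaks against 46641. With equal numbers of top peaks in every library, 5 of the 12 were lost (Fisher's exact test, unadjusted): EGR3 +1.7 kb (p = 0.487), EGR3 +9.0 kb (p = 0.106), EGR4 +39.5 kb and IER3 +37.0 kb (p = 0.231 each) and EGR4 +31.2 kb (p = 1), and the same 5 were lost among peaks scoring at least 400. The 20 libraries of a line come from 1 cell population and include both ligands, so these p-values measure no spread between independent lines. With the 8 baseline and control libraries of each line alone, 9 of the 12 kept an unadjusted p under 0.05 in Fisher's exact test and 3 did not, EGR3 +9.0 kb and EGR4 +39.5 kb (p = 0.0769 each) and IER3 +37.0 kb (p = 0.467).

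**Figure D5:**
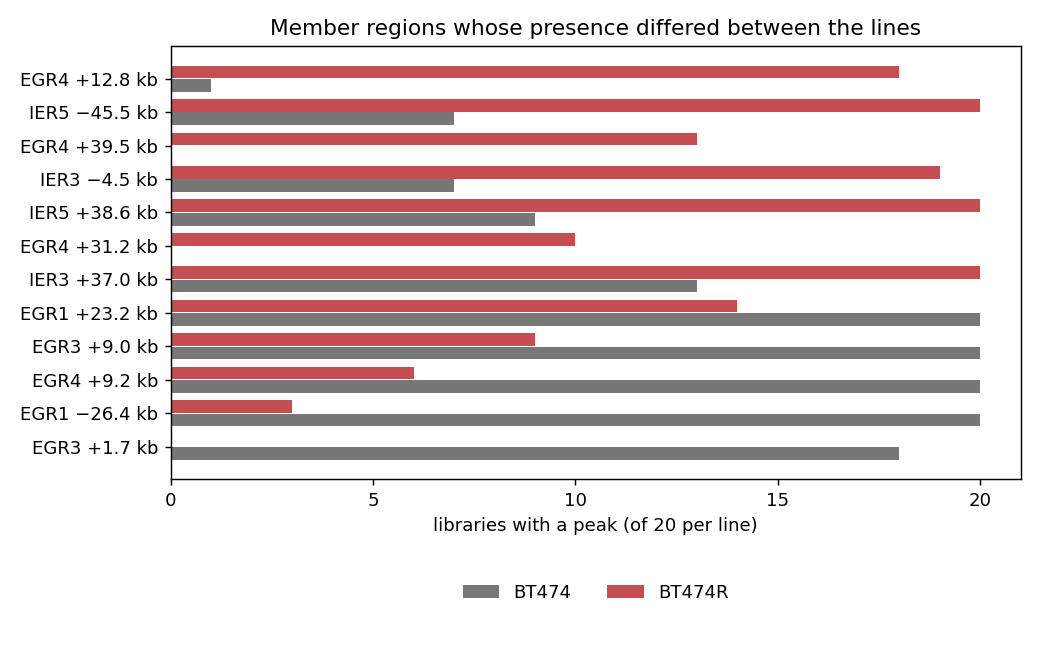
Libraries with a peak, of 20 per line, at the 12 member regions whose presence differed between BT474 (grey) and BT474R (red). EGR4 +12.8 kb goes from 1 library to 18; EGR3 +1.7 kb goes from 18 to 0, a call lost with equal numbers of top peaks.

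Whether a ligand moved a region differently in the 2 lines was tested in limma over the 25166 regions with a peak in all 40 libraries, a comparison added after the data were seen. Here the percentile is the rank among those 25166. The 30 members among them held 0 calls for EGF at 1 h (0.0397% of all regions were called), 1 for EGF at 12 h (1.14%), 2 for EGF at 24 h (2.71%), 0 for HRG at 1 h (0.505%), 0 for HRG at 12 h (0.286%) and 1 for HRG at 24 h (1.58%). Where limma called 0, the members with an unadjusted p under 0.05 numbered 2, 4 and 2. IER2 +17.3 kb rose more in BT474R with EGF, by 19.28 ± 4.70 at 12 h (adjusted p = 0.0452) and 25.67 ± 4.70 at 24 h (adjusted p = 0.00473). The first passed 2 of 8 fits without one of its libraries (adjusted p up to 0.184) and the second 8 of 8. At IER3 -7.8 kb the difference of the lines' effects at 24 h was -11.59 ± 2.70 with EGF (adjusted p = 0.0227) and -15.09 ± 2.70 with HRG (adjusted p = 0.00499). Its BT474R control stood at 87.6 and 87.1 on the scale of its own line, against 70.9 and 69.4 in BT474, and a percentile near its upper bound has less room to rise, so the start level and the ligand effect cannot be told apart here. These passed 2 of 8 (adjusted p up to 0.112) and 8 of 8 fits. At 1 h IER2 +17.3 kb differed by 23.49 with EGF and 18.90 with HRG (adjusted p = 0.101 and 0.0859), and IER5 +24.0 kb with HRG at 24 h by -18.22 (adjusted p = 0.0817), none called. EGR3 -1.3 kb and EGR3 +9.0 kb were not among the 30, since some BT474R libraries had no peak there.

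Promoters of 31 other immediate early genes were called for at most 5 of 30 ranked genes in a ligand contrast of BT474 and 4 of 28 in BT474R. In BT474, where 30 could be ranked, 0 were called at 1 h with either ligand in limma (4.24% of all regions called with EGF and 10.7% with HRG). An unadjusted p under 0.05 was found for 1 gene with EGF and 2 with HRG. At 12 h EGF had 4 lower (FOSB, JUNB, CCN1 and GEM; 5.56% of all regions called either way) and HRG 2 lower and 1 higher (9.5%), and at 24 h EGF had 3 lower (13.3%) and HRG 4 lower and 1 higher (13.4%). FOSB, an AP-1 subunit, was called in all 4 of these contrasts with differences of -12.25 to -10.36, and JUNB in 3 of them with -7.15 to -6.16. GEM, a small GTPase, was itself higher in control than at baseline in BT474, by 18.54 at 12 h and 13.12 at 24 h (1 and 0 of 4 fits). In BT474R, with 28 ranked, EGF had 0 at 1 h in limma (2 at an unadjusted p under 0.05, 1.26% of all regions called). It had 1 lower at 12 h (FOSB, 9.3% of all regions called). At 24 h 3 were lower (FOSB, JUN and JUNB) and MYC was higher by 12.76 (adjusted p = 0.0489, 10.8%). HRG-BT474R had FOSB lower at 12 h (3.23%) and 0 called at 1 h and 24 h by limma (0.00708% and 0.0955% of all regions called), with 0 and 5 genes at an unadjusted p under 0.05. The 9 partners and regulators were SRF, ELK1, ELK3, ELK4, MRTFA, MRTFB, CREB1, NAB1 and NAB2, with 8 ranked in BT474 and 7 in BT474R. None was called by limma in any ligand contrast, and 0 to 3 of them had an unadjusted p under 0.05. The share of all regions called ran from 0.00708% to 13.4% over these contrasts, so 0 calls among 7 or 8 genes say little about them. Of 22 calls at promoter regions of the immediate early list in ligand contrasts, 3 passed all 4 fits without a library (FOSB and CCN1 in EGF-BT474 at 24 h and GEM in HRG-BT474 at 12 h), and the highest adjusted p over the fits of the rest was 0.331. The median difference over the ranked genes ran from -3.74 (EGF-BT474 at 24 h, beside -0.09 over all regions) to 1.32 (HRG-BT474 at 1 h, beside 0.09).

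Among 11358 to 11400 protein-coding promoter regions with a peak in all 40 libraries and more than 1 Mb away, those with the most similar list percentiles over the 40 libraries were found for each member start. EGR1 +2.1 kb was closest to the region of JUNB and HOOK2 (Spearman rho = 0.942) and then to that of IER2 and STX10 (0.867). EGR2 +1.8 kb was closest to MYADM (0.849) and SLC35C2 (0.835), and EGR4 +0.1 kb to LATS2 (0.844) and ADIPOR2 (0.818). IER2 +1.9 kb was nearest ACTB (0.879) and PFKFB3 (0.838), and IER2 -0.2 kb PPM1A (0.933) and ZNF250 (0.924). For IER3 +2.3 kb they were ACSF2 (0.951) and the region of NAT14 and SSC5D (0.935), and for IER5 +0.7 kb SMIM8 (0.876) and ROR1 (0.874). The 40 libraries share lines, arms and list length, whose rank correlation with the members ran from -0.101 to 0.384.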

How the data were processed

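Chromatin of BT474 and BT474R cells was profiled by Omni-ATAC-seq in 40 libraries, 2 per group. According to the study's methods, the authors trimmed reads with Trim Galore 0.6.6, aligned them to GRCh38 with BBMap, removed mitochondrial and blacklisted reads and called peaks per library with Genrich, whose options the sources used here do not give. The deposited lists hold a signal per peak (the area of its significance curve, at least 200, not normalized between libraries) and a −log10 p at the summit from the authors' caller, which was not used for any test. The lists hold no read counts, so depth is unknown, and the study's own read-based comparison was not repeated.

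Peaks were merged into 71600 regions (Python 3.11.15, pandas 2.3.3, numpy 2.4.6) and annotated with GENCODE 44. Promoters lie within 1 kb of a start. Presence was compared by two-sided Fisher's exact tests (scipy 1.17.1), and shared-region percentiles by limma 3.58.1 in R 4.3.3, with group means over the 20 libraries of a line. Benjamini-Hochberg adjustment ran over all regions of a contrast, and the limma step was tested on simulated data. Regions at own starts, called regions, and those whose presence differed by 3 of 6 libraries between arms or 10 of 20 between lines were described singly. Alternatives were a score minimum of 400, equal list lengths, 50% coverage, a 10 kb window, other scalings, an absent peak set to 0, baseline and control libraries alone between lines, a replicate block and leaving out each library. The members and lists were chosen with earlier results of these data known. For 1 cell type marker the result is not reported here.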

Additional observations from a re-analysis of the deposited data

Results flagged for a closer look

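Ligand effects that differed between the lines by a test of the difference itself were found at 2 member regions (limma, Benjamini-Hochberg adjusted over 25166 regions, added after the data were seen). At IER2 +17.3 kb EGF moved the percentile higher in BT474R than in BT474, a difference of 19.28 points at 12 h (adjusted p = 0.0452, with 1.14% of all regions called) and 25.67 at 24 h (adjusted p = 0.00473, 2.71% called). The first passed 2 of 8 fits without a library (adjusted p up to 0.184) and the second 8 of 8. At IER3 -7.8 kb the difference at 24 h was -11.59 for EGF (adjusted p = 0.0227, 2.71% called, 2 of 8 fits with an adjusted p up to 0.112) and -15.09 for HRG (adjusted p = 0.00499, 1.58% called, 8 of 8 fits), beside BT474R control libraries nearer to the upper bound of the scale than those of BT474. The 2 ligands share the control libraries of each line and time.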

How the results depend on the processing

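Member counts moved with the window and the scale. With peaks scoring at least 400, or with equal numbers of top peaks, gains and losses went from 1 to 0 in EGF-BT474 and HRG-BT474 and from 0 to 1 in EGF-BT474R. A 10 kb window, which holds fewer regions, left 0 in EGF-BT474 and HRG-BT474, 4 regions that differ between lines (of 12), and rank changes in 4 and 5 regions of BT474 for EGF and HRG, in 4 and 1 of BT474R, and in 1 for control BT474R. Within-list percentiles gave 9 for EGF-BT474 (of 14), 5 for EGF-BT474R (of 10) and 6 for control BT474R (of 2), and log2 scores gave 1 for control BT474 (of 0) and 1 for control BT474R. With an absent peak set to 0 there were 9 for HRG-BT474R (of 4) and 8 for control BT474R. Except for the 10 kb window, which drops regions by its construction, the cause was not tested.

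Leaving out one library at a time, presence counts ranged from 1 to 3 in EGF-BT474, 1 to 2 in HRG-BT474, 0 to 1 in EGF-BT474R, 0 to 2 in HRG-BT474R and 12 to 14 between lines. Without either EGF 1 h library the EGF-BT474 count was 3, without either HRG 1 h library the HRG-BT474 count was 2, and without either BT474R control 1 h library the BT474R counts were 1 for EGF and 2 for HRG. Rank counts ranged from 9 to 16 in EGF-BT474 (9 without control 24 h replicate 2), 9 to 16 in HRG-BT474, 7 to 9 in EGF-BT474R, 0 to 5 in HRG-BT474R and 0 to 9 in control BT474R, and control BT474 stayed at 0. HRG-BT474R fell to 0 without control 12 h replicate 1 or HRG 12 h replicate 2 and to 1 without HRG 12 h replicate 1. Control BT474R gave 9 without baseline replicate 1, 1 without either control 1 h library and 0 without either control 24 h library. No call reversed in these settings.

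The replicate numbers were not used to pair the samples in the main fits. Their deviations correlated from -0.059 to 0.287, with 4 of 12 pairs over 0.1. These values do not settle whether samples of the same number were handled together. With a replicate block the rank counts were 14, 13, 10 and 5 for EGF-BT474, HRG-BT474, EGF-BT474R and HRG-BT474R, and 68 of 71 single calls kept their side of the threshold. Of the same 71, 50 were kept with within-list percentiles and 51 with an absent peak set to 0. With log2 scores 58 were kept, and with the scores of a region summed 68.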
